A study of Homo sapiens with 9 samples.

Results

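Synaptic adhesion molecules are membrane proteins that hold the sending and the receiving side of a nerve cell contact together and organise it. The genes described here are 38 of the 58381 genes in the deposited table, chosen by symbol with no threshold on a measured value, although the families were picked with earlier results of these data known: the contactins (CNTN1 to CNTN6), the contactin-associated proteins (CNTNAP1 to CNTNAP5), the neurexins (the NRXN genes), the neuroligins (NLGN1 to NLGN3), the neurotrophin receptors (the NTRK genes) and 4 leucine-rich repeat families (SLITRK1 to SLITRK6, LRRTM1 to LRRTM4, LRFN1 to LRFN5 and FLRT1 to FLRT3). Of these, 25 had enough counts to be tested, and 22 reached a mean of at least 1 CPM, the count scaled to library size, in at least 1 group. The other 13 were not tested, and 3 of them (CNTN3, LRRTM1 and LRRTM3) had 0 counts in every library.

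RNA was measured in 9 libraries of TC-32, an established Ewing sarcoma cell line whose EWSR1::FLI1 fusion was present in all groups. The study asked which genes ETS1, a transcription factor of the same ETS family as FLI1, regulates beside the fusion. The 3 RFP libraries came from cells with a lentiviral pLOC vector for red fluorescent protein. The 3 ETS1-Low and 3 ETS1-High libraries came from cells with a pLOC vector for a synthetic ETS1 cDNA, at a lower level of ETS1 and at a level comparable to that in cells depleted of the fusion. Per the labels' protocol, which is the same for every library, transduced cells were selected with puromycin and sorted as single cells. Neither the number of clones per group nor whether replicates were separate cultures is stated in the labels, so a difference between clones and an effect of ETS1 cannot be told apart, and p-values measure only the spread between these libraries. The promoter that drives the vector genes is not given in the sources used here.

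As background, neurexins on the sending side bind neuroligins and LRRTM proteins on the receiving side. SLITRK and LRFN proteins and NTRK3 bind LAR-type receptor phosphatases, and FLRT proteins bind latrophilins and UNC5 receptors. Contactins and contactin-associated proteins join neurons to glia along the axon as well as to each other. The NTRK genes encode receptor tyrosine kinases that also carry the survival signal of the neurotrophins, and NTRK3 is known as a fusion partner in other tumours.

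The libraries held between 39484704 and 46654734 expected counts. Replicates correlated at r = 0.998 in log2 CPM across genes, which are not replicates. ETS1 followed the labels without overlap, at 1.81 to 2.15 CPM in RFP, 10.3 to 10.9 in ETS1-Low and 18.2 to 19.7 in ETS1-High. These are reads assigned to the ETS1 gene, which do not separate the synthetic cDNA from the cells' own transcript. Of 10 Ewing sarcoma markers, 10 reached 1 CPM in RFP and 9 in each ETS1 group, with summed levels of 2628 to 2738, 3919 to 3985 and 4006 to 4015 CPM. Of 10 neuron markers, 7 reached 1 CPM in RFP and 4 in each ETS1 group, and their summed level was 255 to 260 CPM in RFP, 104 in ETS1-Low and 121 to 123 in ETS1-High. The summed levels of the other marker lists also differed between groups: fibroblast markers lay at 359 to 392, 397 to 403 and 531 to 568 CPM (RFP, then ETS1-Low, then ETS1-High), epithelial markers at 78.1 to 82.5, 156 to 165 and 110 to 112, markers of Schwann cells and glia at 1.35 to 1.62, 2.46 to 2.56 and 1.33 to 1.75, and markers of blood and endothelium at 2.77 to 3.46, 3.81 to 4.23 and 5.19 to 5.97.

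The same 3 RFP libraries served as the control for ETS1-Low and for ETS1-High. A gene is called at an adjusted p under 0.05 in the edgeR quasi-likelihood test over 17235 genes, and adjusted p-values below are from that test. In ETS1-High against RFP, 9 of the 25 tested members were called higher, which is 36% beside 37% of all genes tested, and 13 were called lower, which is 52% beside 37.2%. Calls with at least a 2-fold change took 12 members (48%, beside 21% of all genes), 4 higher and 8 lower. In ETS1-Low against RFP, 8 members were called higher (32%, beside 37.9%) and 14 lower (56%, beside 36.2%), and 17 changed at least 2-fold (68%, beside 20.6%), 5 higher and 12 lower. The share called higher lay near that of all genes in both comparisons, while the shares called lower and changed 2-fold lay above it. Between ETS1-High and ETS1-Low, 11 members were called higher in ETS1-High (44%, beside 29.9%) and 5 lower (20%, beside 29.3%), and 10 changed at least 2-fold (40%, beside 9.74%). These shares cover the members that passed the filter on low counts, which also keeps a gene that is high in 1 group only, so they describe the list and support nothing further.

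The median log2 fold change of the tested members against RFP was -0.12 for ETS1-High and -0.73 for ETS1-Low, beside -0.01 and 0.01 for all genes. The median of the fold changes taken without sign was 0.86 and 1.86, beside 0.40 and 0.41. Placing SLITRK5, which had 0 counts in ETS1-Low, at its bound left the median at -0.73. CNTN4 and SLITRK3 were called higher in ETS1-High and lower in ETS1-Low, each against RFP. Since RNA comes from bulk cultures, fewer cells with a transcript and less of it per cell cannot be told apart.

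**Figure D1:**
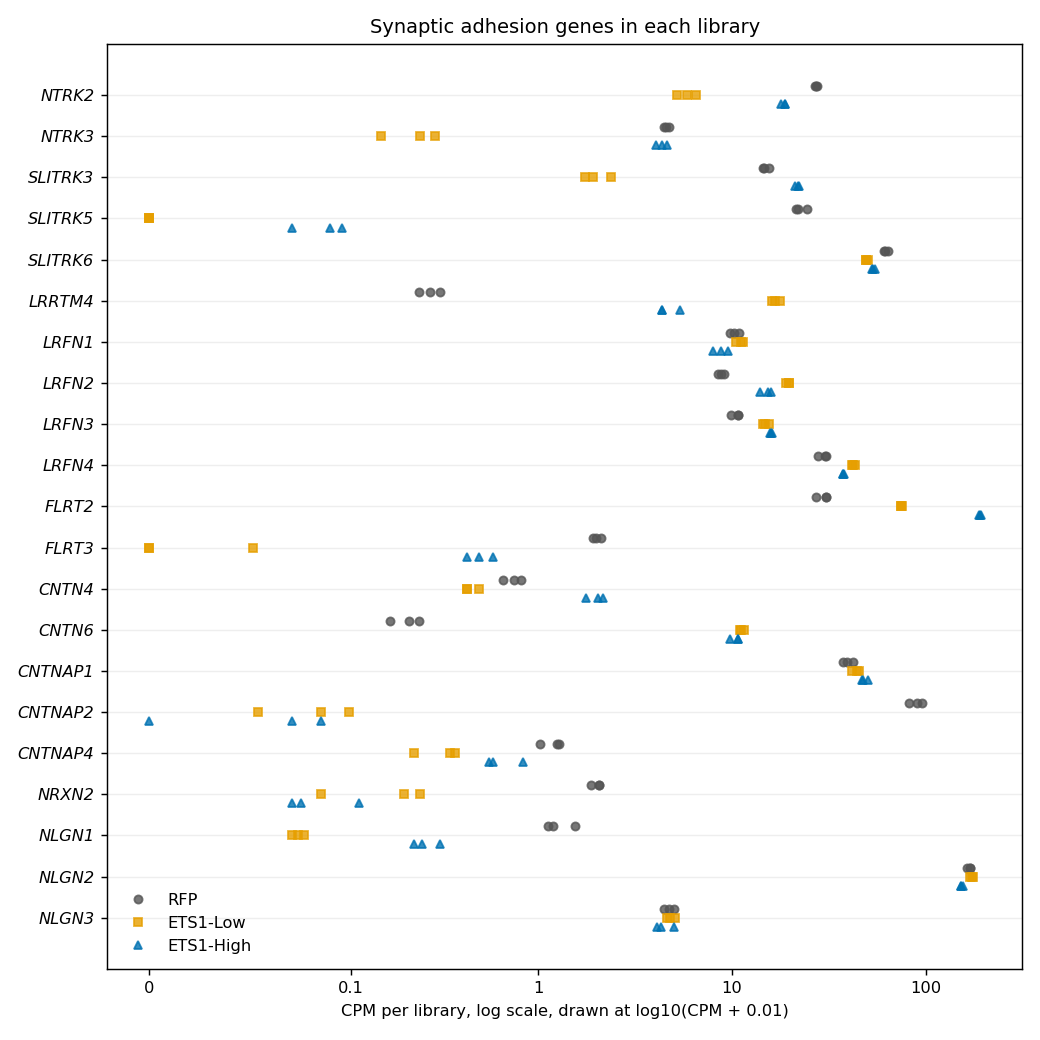
Level of 21 members that reached 1 CPM, 1 point per library, on a log axis in CPM, with circles for RFP, squares for ETS1-Low and triangles for ETS1-High. CNTNAP2 and SLITRK5 lie far to the left of RFP in both ETS1 groups, CNTN6 and LRRTM4 far to the right, and NTRK3 and SLITRK3 are low in ETS1-Low alone.

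ETS proteins bind DNA around the letters GGAA, so the 250 bases before the RefSeq transcription start (GRCh38.p14) are shown for 4 members with different patterns of calls: CNTNAP2, which fell most in ETS1-High, CNTN6, called higher in both ETS1 groups, NTRK3, called lower in ETS1-Low alone, and NLGN2, which had the highest length-scaled level in RFP. Capitals mark GGAA on either strand (read as TTCC when on the other strand), and each sequence runs 5′ to 3′ on the gene's strand.
CNTNAP2: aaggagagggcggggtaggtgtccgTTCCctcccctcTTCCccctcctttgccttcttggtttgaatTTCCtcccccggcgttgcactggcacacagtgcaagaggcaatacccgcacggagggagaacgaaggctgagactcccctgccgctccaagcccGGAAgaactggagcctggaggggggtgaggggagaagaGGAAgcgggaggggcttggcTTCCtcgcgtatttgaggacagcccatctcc
CNTN6: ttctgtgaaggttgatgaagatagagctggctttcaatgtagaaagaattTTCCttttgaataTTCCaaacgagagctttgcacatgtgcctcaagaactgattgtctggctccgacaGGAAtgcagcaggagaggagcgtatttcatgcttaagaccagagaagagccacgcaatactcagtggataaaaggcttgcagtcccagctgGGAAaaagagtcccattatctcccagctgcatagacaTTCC
NTRK3: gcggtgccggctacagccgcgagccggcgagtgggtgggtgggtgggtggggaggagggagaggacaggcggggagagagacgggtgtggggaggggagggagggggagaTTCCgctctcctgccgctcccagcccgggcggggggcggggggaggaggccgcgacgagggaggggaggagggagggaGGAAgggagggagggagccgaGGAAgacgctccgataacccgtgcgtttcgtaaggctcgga
NLGN2: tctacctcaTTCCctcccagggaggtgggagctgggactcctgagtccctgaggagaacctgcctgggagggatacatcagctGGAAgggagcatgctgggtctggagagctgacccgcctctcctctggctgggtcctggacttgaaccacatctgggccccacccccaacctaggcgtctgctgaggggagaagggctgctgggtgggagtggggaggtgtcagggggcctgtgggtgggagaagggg

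These windows lie at chr7:146116551-146116800 (plus strand), chr3:1092774-1093023 (plus strand), chr15:88256740-88256989 (minus strand) and chr17:7407595-7407844 (plus strand). In GENCODE v44, CNTNAP2, CNTN6 and NLGN2 start before their windows, at 146116002, 1092658 and 7404874. NTRK3 starts within its window, at 88256791. The windows are therefore not upstream of every annotated start. The CNTNAP2 window holds 6 such cores, 1 of them within the longer form CCGGAA, and the windows of CNTN6, NTRK3 and NLGN2 hold 5, 3 and 2. Of 35116 windows of this length in the same table, 92.7% hold GGAA on either strand, with a median of 3 sites, 14.5% hold CCGGAA and 3.1% hold the tandem GGAAGGAA, each of these longer letters overlapping the core. Among the 52 windows of the 33 members with an entry, 48 hold the core, 4 the CCGGAA form and 3 the tandem. A match of letters is a description and not a site of binding.

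Of the neurotrophin receptors, NTRK2 and NTRK3 are described, and they differed from each other in pattern. NTRK2, the receptor for brain-derived neurotrophic factor, was at 27.1, 27.3 and 26.8 CPM in RFP, 6.53, 5.25 and 5.86 in ETS1-Low and 18.7, 18.8 and 18.0 in ETS1-High. The 3 groups did not overlap, with ETS1-High in between. Its log2 fold change against RFP was -2.21 (SE 0.06, adjusted p 1.03e-33) in ETS1-Low and -0.55 (SE 0.06, adjusted p 9.51e-13) in ETS1-High, by edgeR. Genes within 10 Mb of NTRK2 on chromosome 9 moved by a median of -0.62 on the log2 scale in ETS1-Low and -0.01 in ETS1-High, and the value of NTRK2 in ETS1-Low became -1.59 after that median was subtracted.

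NTRK3, the receptor for the product of NTF3, had a level that was low in 1 group. It was at 4.57, 4.74 and 4.47 CPM in RFP, 0.238, 0.289 and 0.146 in ETS1-Low and 4.62, 4.07 and 4.37 in ETS1-High. RFP and ETS1-High overlapped, and all ETS1-Low libraries lay below both. NTRK3 was 20.3-fold lower in ETS1-Low than in RFP (95% counting interval 13.9 to 30.8; log2 fold change -4.33, SE 0.19, adjusted p 2.92e-26 in edgeR; intervals are exact binomial ones on the summed counts and cover counting error only, since reads amplified by PCR without molecular identifiers are not independent molecules), while the value in ETS1-High was -0.08 (SE 0.11, adjusted p 0.533). The test of ETS1-High against ETS1-Low itself gave 4.25 (SE 0.19, adjusted p 4.02e-25).

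In FPKM, the authors' values scaled to gene length and library size, NTRK2 was at 4.25 ± 0.061, 0.850 ± 0.10 and 2.74 ± 0.081 in RFP, ETS1-Low and ETS1-High (mean ± SD, n = 3), and NTRK3 was at 1.47 ± 0.26, 0.150 ± 0.075 and 1.51 ± 0.28. NTRK2 had the higher level per length of both in each group.

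On the sending side, the tested neurexin was NRXN2. It was at 1.87, 2.07 and 2.07 CPM in RFP, 0.238, 0.0667 and 0.195 in ETS1-Low and 0.0508, 0.111 and 0.0448 in ETS1-High, with both ETS1 groups below RFP and overlapping each other. It fell 12.4-fold in ETS1-Low (95% counting interval 7.88 to 20.6; log2 fold change -3.60, SE 0.30, adjusted p 2.21e-15) and 28.7-fold in ETS1-High (14.9 to 63.4; -4.79, SE 0.35, adjusted p 1.53e-17). The difference between the ETS1 groups, -1.19 (SE 0.55), missed the threshold with an adjusted p of 0.0596 in edgeR and passed it without ETS1-Low replicate 2 (-1.59, adjusted p 0.0121) or without ETS1-High replicate 2 (-1.71, adjusted p 0.0287). NRXN3 had at most 1 count in any library.

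Of the neuroligins, partners of the neurexins, NLGN2 was by far the most abundant. This neuroligin of inhibitory synapses was at 163, 168 and 168 CPM in RFP, 168, 174 and 173 in ETS1-Low and 152, 156 and 151 in ETS1-High. ETS1-High lay below RFP without overlap by a small amount (-0.12, SE 0.03, adjusted p 0.000286 in edgeR), and ETS1-Low overlapped RFP (0.04, SE 0.03, adjusted p 0.184). The direction in ETS1-Low turned on the FPKM scale, where limma gave -0.11 on log2(FPKM + 1) with an adjusted p of 0.0114 and a mean FPKM of at least 1.

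NLGN1, a neuroligin of excitatory synapses, was at 1.56, 1.13 and 1.19 CPM in RFP, 0.0529, 0.0445 and 0.0488 in ETS1-Low and 0.305, 0.222 and 0.246 in ETS1-High. The 3 groups did not overlap. It fell 26.7-fold in ETS1-Low (95% counting interval 12.0 to 73.6, from 6 counts over the group; -4.66 on the log2 scale, SE 0.41, adjusted p 1.13e-14) and 5.06-fold in ETS1-High (3.48 to 7.56; -2.32, SE 0.30, adjusted p 1.11e-09), by edgeR. NLGN3, found at both kinds of synapse, was at 4.76, 5.04 and 4.49 CPM in RFP, 4.65, 4.82 and 5.13 in ETS1-Low and 5.05, 4.29 and 4.10 in ETS1-High, with overlap in each comparison and adjusted p-values of 0.423, 0.77 and 0.308. Per length the order was NLGN2, NLGN3 and NLGN1 in every group, at 41.9 ± 0.42, 1.56 ± 0.13 and 0.297 ± 0.040 FPKM in RFP.

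Of the contactin-associated proteins, CNTNAP2 fell furthest, and in ETS1-High further than any other tested member. CNTNAP2 (ENSG00000174469.20; chromosome 7, 146116002 to 148420998 on GRCh38, plus strand, 2305 kb) encodes the protein that gathers potassium channels beside the node of Ranvier. It was at 95.5, 81.5 and 89.6 CPM in RFP, 0.0264, 0.0667 and 0.0977 in ETS1-Low and 0, 0.0445 and 0.0672 in ETS1-High, which is 3820 to 4595 counts per RFP library, 1 to 4 per ETS1-Low library and 0 to 3 per ETS1-High library. No ETS1 library came near an RFP library. The ratio of the counts was 1376 in ETS1-Low (95% counting interval 698 to 3187; log2 fold change -10.36, SE 0.14, adjusted p 5.39e-27) and 2295 in ETS1-High (983 to 7069; -11.06, SE 0.14, adjusted p 3.82e-27), by edgeR. The ETS1 groups overlapped (adjusted p 0.524).

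CNTNAP1, the founding member of the family at the junction between axon and myelin, was at 37.4, 42.0 and 39.03 CPM in RFP, 41.4, 45.3 and 43.9 in ETS1-Low and 50.3, 46.8 and 47.4 in ETS1-High. All ETS1-High libraries lay above RFP (0.29, SE 0.04, adjusted p 4.73e-08 in edgeR). In ETS1-Low it overlapped RFP and was called higher (0.14, SE 0.04, adjusted p 0.00233), a direction that turned to -0.064 and lost its call on the log2(FPKM + 1) scale. In ETS1-High that scale also lost the call, at 0.082 with an adjusted p of 0.184 in limma. In RFP CNTNAP1 and CNTNAP2 had 10.8 ± 0.48 and 15.9 ± 1.1 FPKM, and in ETS1-High 11.5 ± 0.58 and 0.0167 ± 0.015, so the family's summed level of 27.2 FPKM in RFP became 10.6 in ETS1-Low and 12.0 in ETS1-High.

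CNTNAP4 was at 1.29, 1.02 and 1.25 CPM in RFP, 0.344, 0.222 and 0.366 in ETS1-Low and 0.838, 0.556 and 0.582 in ETS1-High. It fell by 1.94 on the log2 scale in ETS1-Low (SE 0.28, adjusted p 2.4e-08) and by 0.86 in ETS1-High (SE 0.24, adjusted p 0.00156 in edgeR), without overlap between any groups. In GENCODE v44, 51.3% of its exon bases are shared with another gene on the same strand, so its counts are uncertain. CNTNAP3 has near-identical copies and held non-whole expected counts in 9 of 9 libraries, at most 24.5. It was called higher in ETS1-Low (1.07, SE 0.37, adjusted p 0.00862 in edgeR), and was not among the called members without RFP replicate 1, without ETS1-Low replicate 1, or in the DESeq2 Wald test. CNTNAP5 had at most 9 counts in a library.

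The contactins, anchored cell surface proteins of the immunoglobulin family, had low levels in RFP, and CNTN6 and CNTN4 were the tested members. CNTN6 (ENSG00000134115.12; chromosome 3, 1092658 to 1404217, plus strand) was at 0.208, 0.235 and 0.164 CPM in RFP, 11.6, 11.1 and 11.2 in ETS1-Low and 9.85, 10.7 and 10.7 in ETS1-High. All 6 ETS1 libraries were far above RFP. CNTN6 rose 55.8-fold in ETS1-Low (95% counting interval 38.7 to 83.7; 5.78 on the log2 scale, SE 0.14, adjusted p 4.99e-37) and 51.9-fold in ETS1-High (35.9 to 77.7; 5.67, SE 0.14, adjusted p 1.42e-36), by edgeR. The ETS1 groups differed by -0.11 (SE 0.07, adjusted p 0.212).

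CNTN4, whose start lies 1.01 Mb from that of CNTN6, went another way. It was at 0.810, 0.747 and 0.656 CPM in RFP, 0.423, 0.422 and 0.488 in ETS1-Low and 1.78, 2.05 and 2.17 in ETS1-High, with no overlap between groups. It was lower in ETS1-Low (-0.73, SE 0.25, adjusted p 0.00954) and higher in ETS1-High (1.44, SE 0.20, adjusted p 1.45e-08), by edgeR. The fall in ETS1-Low lost its call on the FPKM scale (-0.51 on log2(FPKM + 0.1), adjusted p 0.168 in limma). Summed over the family, the contactins had 0.48 FPKM in RFP, 3.27 in ETS1-Low and 3.86 in ETS1-High. CNTN1, CNTN2 and CNTN5 had at most 5 counts in a library.

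The SLITRK family splits into 3 tested members and 3 with at most 2 counts in a library (SLITRK1, SLITRK2 and SLITRK4). SLITRK5, a postsynaptic partner of LAR-type phosphatases (ENSG00000165300.7; chromosome 13, 87671371 to 87696272, plus strand) was at 21.3, 24.5 and 21.9 CPM in RFP, from 1026 to 1149 counts per library. It had 0 counts in each ETS1-Low library and 3, 4 and 2 counts in ETS1-High. It was at least 309-fold lower in ETS1-Low, computed on the mean of the 3 libraries' floors of 3 counts, 0.0667 to 0.0793 CPM, and 323-fold lower in ETS1-High (95% counting interval 170 to 708; -8.28 on the log2 scale, SE 0.16, adjusted p 2.77e-40 in edgeR). The test also called SLITRK5 between the ETS1 groups (adjusted p 0.00117), where both groups lie at or near the floor and no fold is given.

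SLITRK3, a postsynaptic organiser of inhibitory synapses, was at 15.5, 14.7 and 14.5 CPM in RFP, 1.93, 1.76 and 2.39 in ETS1-Low and 22.1, 21.3 and 21.8 in ETS1-High. No groups overlapped, with ETS1-Low lowest and ETS1-High highest. It fell by 2.88 on the log2 scale in ETS1-Low (SE 0.09, adjusted p 5.45e-33) and rose by 0.55 in ETS1-High (SE 0.06, adjusted p 4.5e-11), by edgeR. Genes within 10 Mb had medians of 0.18 and 0.26, which leaves -3.06 and 0.28 for SLITRK3.

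SLITRK6, known for its part in the inner ear and the eye, was at 63.8, 61.6 and 60.6 CPM in RFP, 49.1, 49.0 and 50.1 in ETS1-Low and 53.1, 52.5 and 54.5 in ETS1-High. Both ETS1 groups lay below RFP without overlap, with log2 fold changes of -0.33 (SE 0.04, adjusted p 9.25e-12) and -0.22 (SE 0.03, adjusted p 2.74e-07) in edgeR. Genes within 10 Mb on chromosome 13 had medians of -0.25 and -0.16, so -0.08 and -0.06 remained. SLITRK5 starts 1.86 Mb from SLITRK6. Per length, SLITRK6 led the family in RFP at 16.5 ± 0.35 FPKM, followed by SLITRK3 at 3.67 ± 0.11 and SLITRK5 at 1.14 ± 0.096, although SLITRK5 had more CPM than SLITRK3. The longest annotated transcript of SLITRK5 has 21.1 kb.

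LRRTM4, a postsynaptic partner of neurexins and of heparan sulfate proteoglycans, rose most in ETS1-Low. It was at 0.270, 0.235 and 0.307 CPM in RFP, 16.2, 17.8 and 16.6 in ETS1-Low and 5.38, 4.38 and 4.39 in ETS1-High, and no groups overlapped. It rose 62.3-fold in ETS1-Low (95% counting interval 45.4 to 87.9; 5.94 on the log2 scale, SE 0.13, adjusted p 1.05e-38) and 17.3-fold in ETS1-High (12.5 to 24.6; 4.10, SE 0.16, adjusted p 3.86e-28), by edgeR. The log2 difference of ETS1-High from ETS1-Low was -1.84 (SE 0.08, adjusted p 4.64e-25). LRRTM2 was tested at 4 to 26 counts per library and was called lower in both ETS1 groups (-1.08, adjusted p 0.0159, and -1.40, adjusted p 0.00279, in edgeR). Members called lower in ETS1-Low went from 14 to 13 without RFP replicate 2 and without ETS1-Low replicate 3. No member at 1 CPM or more lost its call there, so LRRTM2 or FLRT1 did. In GENCODE v44, 7.3% of the exon bases of LRRTM2 lie opposite exons of CTNNA1.

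Of the 5 LRFN genes, which encode postsynaptic proteins also called SALM, 4 were expressed in every group. LRFN2, LRFN3 and LRFN4 were called higher in both ETS1 groups, beside 37% (ETS1-High) and 37.9% (ETS1-Low) of all genes in each. The share of all genes called higher in both is not given here. LRFN2 was at 8.83, 8.53 and 9.12 CPM in RFP, 19.7, 18.9 and 19.7 in ETS1-Low and 14.0, 15.9 and 15.4 in ETS1-High, highest in ETS1-Low with no overlap. Its log2 fold change was 1.14 (SE 0.06, adjusted p 6.84e-22) in ETS1-Low and 0.78 (SE 0.06, adjusted p 2.52e-15) in ETS1-High, by edgeR.

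LRFN3 was at 10.7, 9.88 and 10.7 CPM in RFP, 15.5, 14.5 and 14.7 in ETS1-Low and 15.7, 16.0 and 16.1 in ETS1-High, with both ETS1 groups above RFP (0.52 and 0.61, adjusted p 4.07e-10 and 1.89e-12 in edgeR). LRFN4 was at 30.5, 27.9 and 30.1 CPM in RFP, 43.2, 41.4 and 42.3 in ETS1-Low and 38.0, 37.4 and 37.5 in ETS1-High (0.52 and 0.35, adjusted p 3.88e-16 and 1.37e-10). Genes within 10 Mb of LRFN4 moved by a median of 0.44 and 0.40, so its own difference in ETS1-High turned to -0.05 after subtraction, and that in ETS1-Low became 0.08. Around LRFN3 the medians were 0.37 and 0.33, which leaves 0.15 and 0.28. In GENCODE v44, 20.1% of the exon bases of LRFN4 lie opposite exons of PC, and the strand setting of the counting is not given in the sources used here.

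LRFN1 was at 10.3, 10.9 and 9.77 CPM in RFP, 11.1, 10.6 and 11.5 in ETS1-Low and 8.78, 9.59 and 7.99 in ETS1-High. It was lower in ETS1-High (-0.23, SE 0.07, adjusted p 0.00489 in edgeR), a call that was lost without ETS1-High replicate 3 (-0.16, adjusted p 0.0686), and it overlapped RFP in ETS1-Low (0.10, adjusted p 0.231). Genes within 10 Mb of LRFN1 had medians of 0.34 (ETS1-High) and 0.40 (ETS1-Low), and LRFN1 stood at -0.57 and -0.30 after subtraction, which turned the sign of its uncalled value in ETS1-Low. LRFN1 held non-whole expected counts in 7 libraries, so part of its reads were divided between genes. LRFN4 had the highest level per length in the family in every group, at 19.5 ± 1.6 FPKM in RFP, 26.1 ± 0.97 in ETS1-Low and 22.9 ± 1.4 in ETS1-High. LRFN5 had at most 6 counts in a library.

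FLRT2, a guidance and adhesion protein that binds UNC5 receptors and latrophilins, rose in steps with the labelled level of ETS1. It was at 30.4, 27.1 and 30.4 CPM in RFP, 74.4, 74.2 and 75.2 in ETS1-Low and 191, 187 and 189 in ETS1-High, with narrow groups that did not overlap. The log2 difference was 1.35 from RFP to ETS1-Low (SE 0.04, adjusted p 1.76e-34) and 1.34 from ETS1-Low to ETS1-High (SE 0.03, adjusted p 2.47e-36), by edgeR. In ETS1-High FLRT2 had 40.2 ± 0.89 FPKM, beside 34.5 ± 0.46 for NLGN2, the most abundant member in RFP.

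FLRT3, which binds the same receptors as FLRT2, was at 2.12, 1.98 and 1.93 CPM in RFP, 0, 0 and 0.0244 in ETS1-Low and 0.584, 0.423 and 0.493 in ETS1-High, and the groups did not overlap. It was 249-fold lower in ETS1-Low, where 1 count over the group leaves a wide 95% counting interval of 44.3 to 9856 (adjusted p 5.29e-20 in edgeR), and fell by 2.01 on the log2 scale in ETS1-High (SE 0.23, adjusted p 5.91e-11). FLRT1 was tested at 1 to 26.6 counts per library and was called lower in both ETS1 groups (-1.86, adjusted p 0.000725, and -2.60, adjusted p 3e-05). As stated for LRRTM2, either of these genes may have lost its call in ETS1-Low when a library was left out. Overlapping lncRNA exons cover 15.6% of FLRT1 on the same strand and 12.9% on the other.

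**Figure D2:**
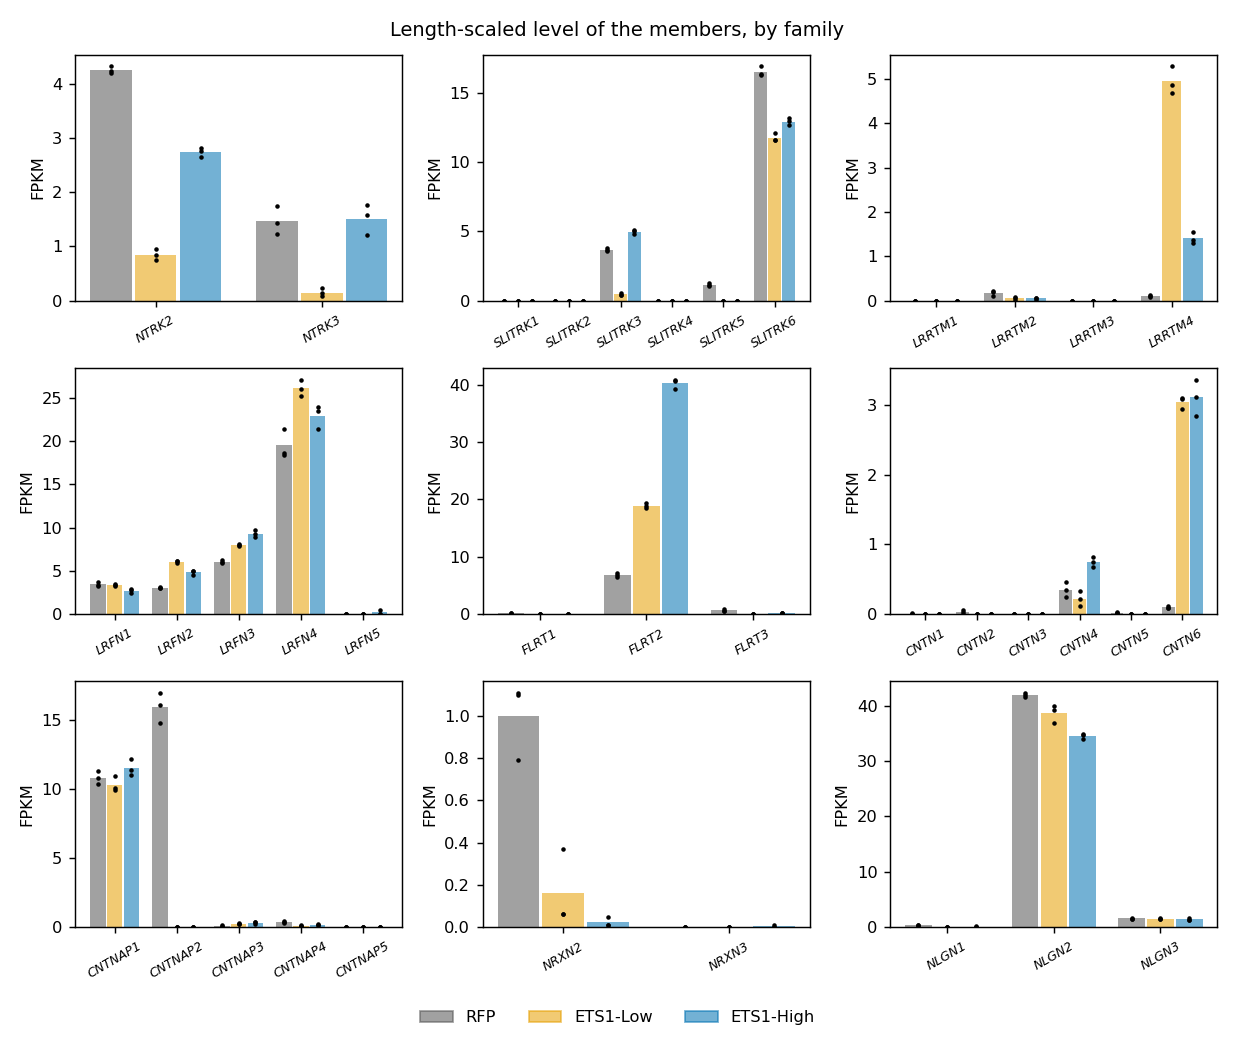
Length-scaled level (FPKM, linear axes from 0) of 36 members in 9 family panels, with bars for the mean of each group and points for its 3 libraries. FLRT2 reaches 40.2 FPKM in ETS1-High from 6.72 in RFP, and CNTNAP2 drops from 15.9 FPKM in RFP to near 0 in both ETS1 groups.

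The falls of CNTNAP2, NRXN2, NLGN1 and SLITRK5 went with a lower summed level of neuron markers in both ETS1 groups, in which CNTN6 and LRRTM4 rose. DCX, a microtubule protein of young neurons, averaged 73.7 CPM in RFP, 0.0561 in ETS1-Low and 0.309 in ETS1-High, MAP2 averaged 5.11, 0.0968 and 0.116, and TUBB3 averaged 55.6, 8.93 and 18.1. The neuron markers RBFOX3, STMN2 and ELAVL4 averaged at most 0.0548 CPM in any group, and SYT1 averaged 111, 86.6 and 92.7. SYP averaged 2.66, 1.90 and 1.49 CPM and ELAVL3 1.11, 0.206 and 0.520. SNAP25 averaged 7.76, 6.11 and 8.33 CPM and was not called in ETS1-High against RFP. Summed fibroblast markers were higher in both ETS1 groups, as FLRT2 was, but so were summed Ewing sarcoma, epithelial, and blood and endothelium markers. Of 8 fibroblast markers, 5 reached 1 CPM in every group, and of these COL3A1 alone was higher in both ETS1 groups. COL3A1 averaged 176, 342 and 450.3 CPM, in the same order of groups, and COL1A1 39.3, 28.3 and 50.9. The other 3 were lower in both ETS1 groups, with THY1 at 75.7, 5.07 and 12.7 CPM, PDGFRB at 74.2, 20.5 and 26.0 and PDGFRA at 12.8, 3.72 and 2.95. LUM had 0 counts in RFP and ETS1-Low. The part of these markers in the results was not tested.

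**Figure D3:**
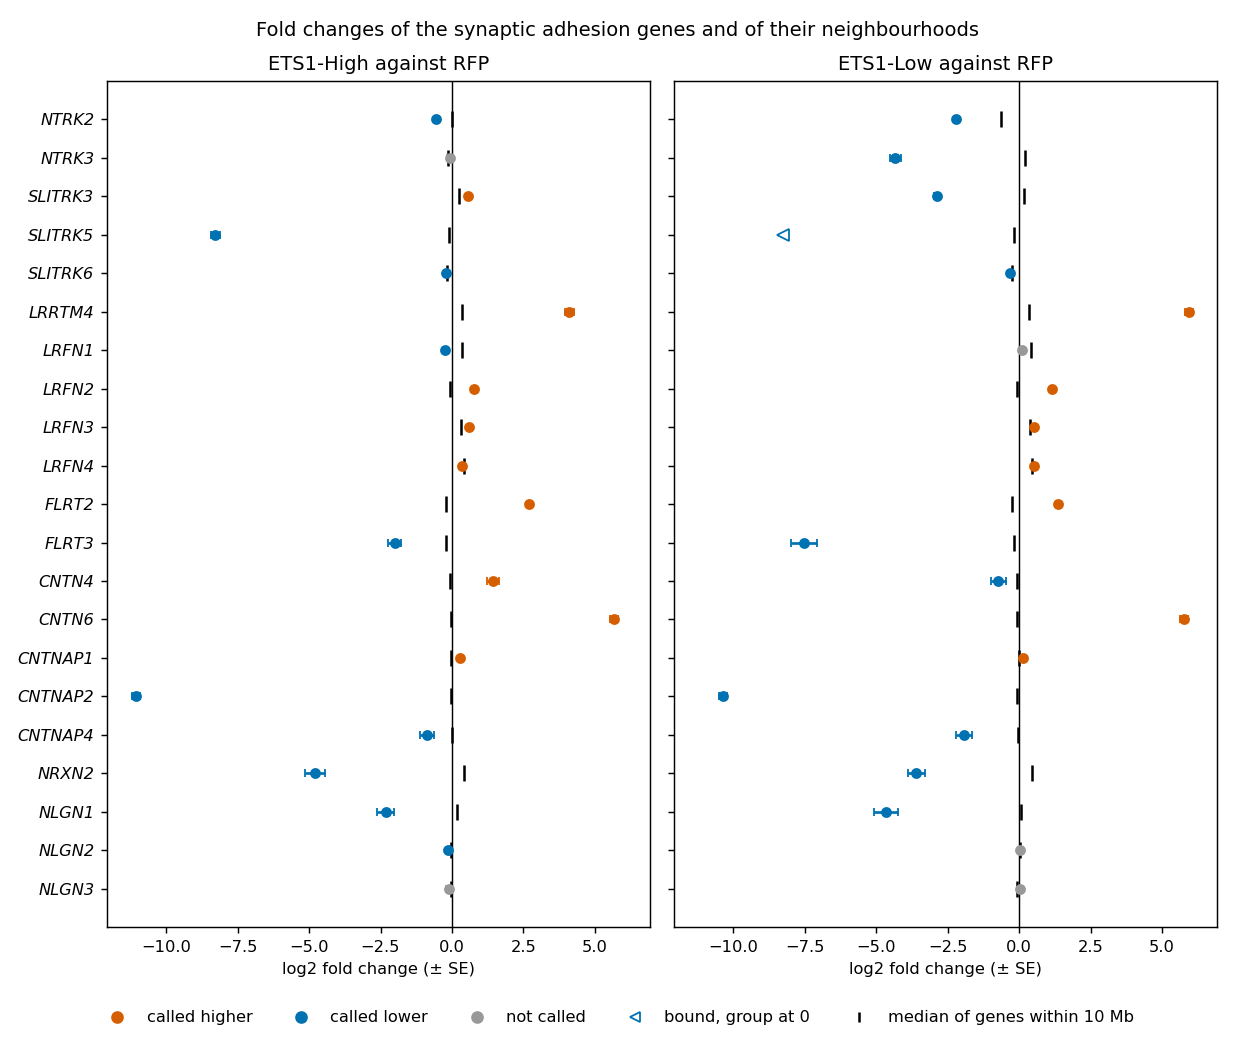
Log2 fold change against RFP with its standard error for 21 members, in ETS1-High (left) and ETS1-Low (right), coloured by call, with an open triangle where the group had 0 counts and the value is a bound, and a black tick at the median of the genes within 10 Mb. Most ticks lie near 0, from -0.62 at NTRK2 to 0.45 at NRXN2 in ETS1-Low, while CNTNAP2, SLITRK5, CNTN6 and LRRTM4 lie far from theirs.

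The binding partners and other genes of the pathway were taken from a list of 64 genes written with earlier results of these data known. Of the 51 tested, 15 were called higher and 34 lower in ETS1-High than in RFP, and 14 and 35 in ETS1-Low. Of all genes tested, 37% were called higher and 37.2% lower in ETS1-High, and 37.9% and 36.2% in ETS1-Low. The share of all genes called the same way in both comparisons is not given here, so counts within parts of this list describe the list only. At least a 2-fold change was called in 7 higher and 22 lower in ETS1-High, and in 4 higher and 22 lower in ETS1-Low. Of all genes, 21% and 20.6% had such a call in either direction, and their split by direction is not given here. Their median log2 fold change was -0.51 and -0.63, also with genes at 0 placed at their bound. Between ETS1-High and ETS1-Low, 18 were called higher and 14 lower, beside 29.9% and 29.3% of all genes, and 19 were not called.

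Among the LAR-type receptor phosphatases, PTPRD averaged 1.01 CPM in RFP and had 0 counts in all 6 ETS1 libraries, a fall of at least 13.8-fold for ETS1-Low and at least 14.4-fold for ETS1-High. PTPRS averaged 151 CPM in RFP, 136 in ETS1-Low and 125 in ETS1-High (log2 fold change -0.15 and -0.27, adjusted p 2.16e-05 and 7.26e-11 in edgeR). PTPRF, added after its values were seen, averaged 176, 201 and 185 CPM and was called higher in both (log2 fold change 0.19 and 0.074, adjusted p 2.96e-06 and 0.0476 in edgeR). Both phosphatases that bind contactins were called lower in both groups: PTPRZ1 fell from 31.0 CPM to 12.6 and 7.49, and PTPRG from 46.3 to 40.6 and 40.7.

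Of the partners of FLRT proteins, the latrophilin ADGRL1 averaged 132 CPM in RFP, 102 in ETS1-Low and 92.4 in ETS1-High, and ADGRL3 fell from 1.29 CPM to 0 counts in ETS1-Low and 1 count over ETS1-High. UNC5B, a netrin receptor, was at 16.8, 13.1 and 57.5 CPM (log2 fold change -0.36 in ETS1-Low and 1.77 in ETS1-High, adjusted p 1.34e-07 and 3.45e-35 in edgeR). UNC5C fell from 5.56 CPM to 0.00741 and 0.0169. Of the teneurins, ligands of latrophilins, 3 of 4 were called lower in both comparisons, beside 37.2% (ETS1-High) and 36.2% (ETS1-Low) of all genes in each. TENM3 fell from 21.9 CPM to 18.5 and 7.34, while TENM1 rose from 226 to 346 and 475.

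All 5 tested genes of the neurotrophins and their other receptors were called lower in both comparisons, beside 37.2% (ETS1-High) and 36.2% (ETS1-Low) of all genes in each. SORCS1 was at 7.84, 0.0954 and 0.104 CPM and NGFR, the shared low-affinity receptor, at 105, 93.8 and 82.3. The 3 tested genes of the L1 family were also lower in both: NRCAM averaged 13.9, 1.80 and 0.559 CPM and NFASC 2.46, 0.0657 and 0.101. CBLN2, a secreted bridge between neurexins and their partners, went from 4.79 CPM to 0 counts in all ETS1 libraries, a fall of at least 65.5-fold and 68.4-fold, and CBLN3 was at 1.17, 1.39 and 1.69.

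Of the other organisers, LRRC4B fell from 11.6 CPM to 0.358 and 0.956, and NTNG1 rose from 88.1 to 112 in ETS1-Low and fell to 43.0 in ETS1-High (log2 fold change 0.35 and -1.04, adjusted p 2.25e-14 and 8.46e-32 in edgeR). The 10 scaffold genes split evenly, with 5 higher and 5 lower in each ETS1 group against RFP. EPB41L3, a membrane skeleton protein, rose from 3.54 CPM to 93.8 and 91.3, and MPP2 fell from 25.9 to 6.02 and 4.32.

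**Figure D4:**
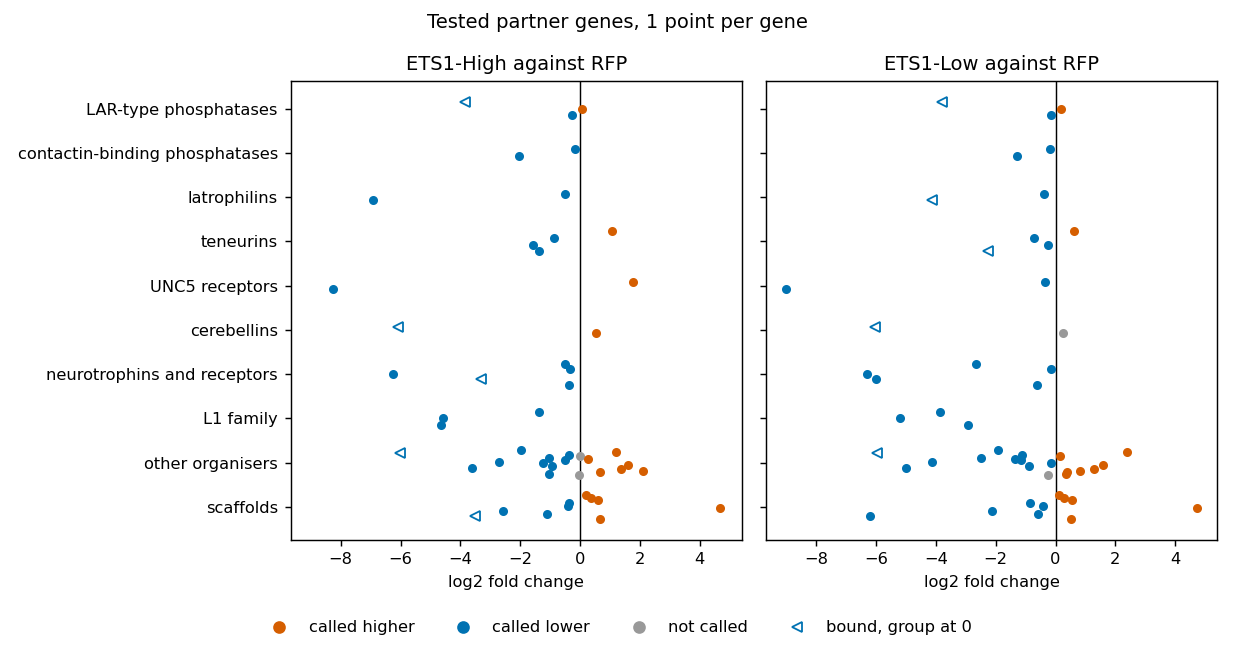
Log2 fold change against RFP of the 51 tested partner genes, 1 point per gene in rows by group, in ETS1-High (left) and ETS1-Low (right), with open triangles at the bound where a group had 0 counts. Points to the left of 0 outnumber those to the right, 34 to 15 among called genes in ETS1-High and 35 to 14 in ETS1-Low, and EPB41L3 lies farthest right among the scaffolds.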

How the data were processed

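The 9 libraries were grouped by their titles, 3 per group. The authors deposited RSEM expected counts and FPKM values per gene, per the file headers. Expected counts divide reads shared between genes, and in each library 9.00% to 10.3% of values were not whole. Per the submitters' processing notes, which give no roles, the tools were cutadapt 4.4, STAR 2.7.3, featureCounts, Subread 2.0.3 and limma 3.38.3, with GRCh38 or hg38. The annotation release and the strand setting are not given in the sources used here. All columns matched a library by name.

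The deposited expected counts were rounded and tested with edgeR 4.0.16 in R 4.3.3 (TMM, filterByExpr by group, robust quasi-likelihood fit) in 1 fit of all 9 libraries, with Benjamini-Hochberg adjustment over 17235 genes. The script was tested on simulated data. CPM use TMM-scaled totals. FPKM values, scaled by the authors to length and depth, served to compare levels between genes. Alternatives were limma 3.58.1 on log2(FPKM + 1) or log2(FPKM + 0.1), DESeq2 1.42.0 (its Wald test and size factors), upper-quartile factors, other filters, a minimum 2-fold test, fits of only the groups compared, the replicate block, leaving out each library, and subtraction of the local median.

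Replicate libraries differed by more than sampling noise (mean chi-square per gene 2.66 to 5.19 over 9 pairs), so each counts once. Where a group had 0 counts, the fold is a bound from a floor of 3 counts per library. Positions and exon overlaps are from GENCODE v44, which held 38 of 38 members and 99.18% of the genes tested. Local medians are over genes within 10 Mb with a mean log2 CPM above 1.

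Members with a mean of at least 1 CPM in a group are named with every value, except that results of 2 members are not reported here, and up to 2 partner genes per group by the smallest p for ETS1-High over RFP. TENM4 was matched by gene identifier under an older symbol. The members and lists were chosen with earlier results of these data known.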

Additional observations from a re-analysis of the deposited data

Results flagged for a closer look

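For 15 members, the difference from RFP was not the same in the 2 ETS1 groups, by the edgeR test of ETS1-High against ETS1-Low in the 3 libraries of each. They are given here as log2 differences of ETS1-High over ETS1-Low, leaving out SLITRK5, which had at most 4 counts in any ETS1 library. The same test called 10196 of all 17235 genes (29.9% higher and 29.3% lower), so a call in it was common and not particular to these members.

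In 2 of them the directions against RFP were opposite and both called: CNTN4, with a difference of 2.16, and SLITRK3, with 3.43. ETS1-High was also higher for FLRT3 (5.52), NTRK3 (4.25), NLGN1 (2.34), NTRK2 (1.66), FLRT2 (1.34), CNTNAP4 (1.08), CNTNAP1 (0.14) and SLITRK6 (0.11). It was lower for LRRTM4 (-1.84), LRFN2 (-0.36), LRFN1 (-0.33), LRFN4 (-0.17) and NLGN2 (-0.17). Of the 10 that were higher, FLRT2, CNTNAP1, CNTN4 and SLITRK3 lay above RFP in ETS1-High. The value of FLRT3 rests on 1 count over ETS1-Low (ratio 61.4, 95% counting interval 10.6 to 2462). On log2(FPKM + 1) with no filter, limma did not call NLGN1 (adjusted p 0.157), CNTNAP4 (0.0709), FLRT3 (0.132), CNTNAP1 (0.0802) or LRFN4 (0.0835).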

How the results depend on the processing

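The calls of the 22 members at 1 CPM or more, 66 in the 3 comparisons, kept their direction and side of the threshold under DESeq2 size factors, upper-quartile factors, the DESeq2 Wald test, both other filters on low counts and the replicate block. Same-numbered libraries did not deviate together (r of -0.0603 to 0.0613 over 9 pairs). With 3 libraries per group, this check cannot exclude that the numbers pair them. With the replicate block, 9 members were higher and 13 lower in ETS1-High against RFP, 8 and 14 in ETS1-Low, and 11 and 5 between them.

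A test against a minimum 2-fold change left 4 higher and 7 lower in ETS1-High against RFP, 4 and 10 in ETS1-Low, and 8 and 1 between the ETS1 groups. Over all genes it left 2608, 2530 and 904 calls of 12785, 12773 and 10196. With limma on log2(FPKM + 1) and a mean FPKM of at least 1, 5 were lower in ETS1-High than in RFP and 6 in ETS1-Low, and 7 were higher between the ETS1 groups, also 7 with no filter; fewer members enter with the filter. The FPKM scale lowered the share of higher calls over all genes from 49.8% to between 38.4% and 41.2% in ETS1-High and from 51.2% to between 36.8% and 41.6% in ETS1-Low, and FPKM + 0.1 moved the median of all genes to -0.11 in both. It reversed CNTNAP1 in ETS1-Low (-0.064, -0.069 and -0.064 in the 3 settings) and NLGN2 (-0.11 in each). Between the ETS1 groups, calls of CNTNAP1, CNTNAP4, NLGN1, FLRT3, LRFN4 and SLITRK5 were lost in at least 1 FPKM setting. SLITRK5 was at 0 FPKM in both ETS1 groups. LRFN3, not called there by edgeR, was called higher in ETS1-High in all 3 settings (0.20 to 0.22, adjusted p 0.00466 to 0.0089 in limma). Subtraction of the local median moved 27 of 66 values by at least their standard error and reversed 1, LRFN4 in ETS1-High, to -0.055. Among those moved, LRFN1 went to -0.57 in ETS1-High and -0.30 in ETS1-Low, and SLITRK6 to -0.056 and -0.076. In ETS1-Low, LRFN4 went to 0.077, LRFN3 to 0.15 and NTRK2 to -1.59. Other causes were not tested.

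Leaving out each library gave 9 higher and 12 to 13 lower in ETS1-High, 7 to 8 and 13 to 14 in ETS1-Low, and 11 and 5 to 6 between them. Depth limits the folds of members with few counts in a group.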
